A study of Homo sapiens with 4 samples.

Results

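MET, AXL, MERTK, KIT, FGFR1, FGFR2, FGFR3, EPHA2, DDR1 and ROR1 are receptor tyrosine kinases outside the ERBB and insulin receptor families, and their mRNAs were followed by gene symbol as 10 of the 60558 genes in each file. They were picked with the differences between myr-AKT1 and vector cells already known, so those differences are given here as a description and without a test. A549 and HCC827 are established human lung adenocarcinoma (LAD) cell lines. Each line was transduced with an empty vector or with myr-AKT1, an AKT1 that a myristoylation signal holds at the membrane in an active state, and the resulting 4 cell populations, named below by line and construct, were each sequenced as 1 strand-specific RNA library. Each condition thus has 1 library, so a difference within a line has no replicate check, and whether the transduced cells were clones or pools is not given in the sources used here.

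A receptor tyrosine kinase spans the plasma membrane, binds a ligand outside the cell and phosphorylates tyrosines on its own tail, to which adaptors for the RAS and PI3K pathways bind. AKT lies downstream of these receptors, and a long-lasting change in AKT activity is known to feed back on the expression of receptors. MET binds hepatocyte growth factor, AXL binds GAS6, MERTK binds GAS6 and protein S, and KIT binds stem cell factor. FGFR1 to FGFR3 bind fibroblast growth factors, EPHA2 binds membrane-held ephrins, DDR1 binds collagen, and ROR1 binds WNT5A.

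The libraries held 16322183 to 33530317 reads. Values are normalized read counts, that is reads over a library's size factor, as deposited. The factors were set within each pair of libraries, so a value is comparable between myr-AKT1 and vector cells of 1 line. AKT1 itself had 6297 normalized counts in A549-myr-AKT1 against 4243 in A549-vector cells, and 4805 against 2175 in HCC827 cells. All 6 epithelial markers examined (EPCAM, CDH1, KRT7, KRT8, KRT18, KRT19) had reads in every library. Their summed value was 168600 in A549-myr-AKT1 and 194100 in A549-vector cells, and 87560 against 162500 in HCC827 cells. In A549 cells KRT8 and KRT18 were lower with myr-AKT1 and the other markers higher. In HCC827 cells KRT8 had 13519 against 47313 and KRT18 11591.5 against 39094. KRT19, KRT7 and EPCAM were lower by less than 2-fold there, and CDH1 was higher, at 22623 against 18208. The sums were 22.9, 6.99, 7707 and 8447 for 4 blood cell markers, with myr-AKT1 and then vector in A549 and the same in HCC827 cells, where LCP1, an actin-bundling protein, gave 7702 and 8442 of the sums and PTPRC, CD34 and CD48 had 0 to 5 reads, 774, 217, 6.29 and 7.95 for 5 fibroblast markers, and 137, 14.0, 204 and 81.9 for 5 endothelial markers, KDR among them. In each of these 3 lists, 1 or more markers were at 3 reads or fewer in every library, and the part of such genes in the results was not tested. Below, a log2 ratio is the log2 fold change of myr-AKT1 over vector within a line, in brackets with its 95% exact interval, which covers counting error only. Coordinates are of GRCh38.

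KIT showed the widest difference of the 10 receptors, and only in HCC827 cells was it past 2-fold. KIT had 0 reads in HCC827-vector cells, which allows a normalized count of up to 2.38 (3 reads), and 362 reads or 456 normalized counts in HCC827-myr-AKT1 cells. Against that floor, which is a stand-in, the level with myr-AKT1 was 191-fold higher. The exact interval of the ratio starts lower, at 155. In A549 cells KIT was low in both libraries, with 21.8 normalized counts against 25.3 for the vector, a log2 ratio of -0.22 (-1.14 to 0.66), and the interval includes 0. In a bulk library, more cells with KIT and more KIT RNA per cell cannot be told apart. Whether other genes followed KIT was looked at by position and by pattern.

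KIT (ENSG00000157404, chromosome 4, 54657267 to 54740783, plus strand) lies beside other receptor genes. Among the genes within 1 Mb on either side, 8 had at least 20 reads in the HCC827 pair, of which 3 were higher by 2-fold or more with myr-AKT1 and 0 were lower, where 13.5% and 13.2% of all genes tested in that pair were. The 3 were the VEGF receptor KDR, the steroid reductase gene SRD5A3 and a Y RNA copy, chosen by position after the values were seen. KDR, 338 kb away, had 51 reads with myr-AKT1 against 7 for the vector, a log2 ratio of 3.53 (2.38 to 4.91), and SRD5A3 had a log2 ratio of 1.85. PDGFRA, the nearest receptor gene before KIT at 359 kb, had 0 reads in both HCC827 libraries. Of 7 such neighbours tested in A549 cells, 0 were past 2-fold in either direction.

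By distance between mean-centred log2 values over the 4 libraries, the 5 genes most like KIT among 21671 were LINC01484, ASIC4, S100P, IL17REL and SLC5A1, at distances of 2.24 to 2.76. S100P, which encodes a calcium-binding protein, had 879 reads with myr-AKT1 against 17 for the vector in HCC827 cells, and the other 4 had 34 to 51 against 0. The likeness over 4 libraries is a description only.

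KIT is best known from mast cells and melanocytes, and markers of both were examined. The 5 mast cell markers (TPSAB1, TPSB2, CPA3, MS4A2, HDC) had 3 reads or fewer in every library. Of the 5 melanocyte markers (MLANA, PMEL, TYR, DCT, TYRP1), TYR and MLANA had 0 reads in both HCC827 libraries. TYRP1 had 36 reads with myr-AKT1 against 5 for the vector there, and DCT had 7 against 2. PMEL, the largest part of the list's sum in each library, had 60 against 53 reads there (75.5 and 42.1 normalized counts), and 50 against 63 in A549 cells. The summed value of the list was 130 against 47.7 in HCC827 cells, and 67.6 against 58.5 in A549 cells, and its part in the KIT result was not tested.

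The RefSeq start of KIT is at 54657957, and its promoter window is printed because KIT differed most of the receptors. The window covers chr4:54657707-54658006 on the plus strand of GRCh38.p14, with the single GC box (GGGCGG on either strand) in capitals.
KIT: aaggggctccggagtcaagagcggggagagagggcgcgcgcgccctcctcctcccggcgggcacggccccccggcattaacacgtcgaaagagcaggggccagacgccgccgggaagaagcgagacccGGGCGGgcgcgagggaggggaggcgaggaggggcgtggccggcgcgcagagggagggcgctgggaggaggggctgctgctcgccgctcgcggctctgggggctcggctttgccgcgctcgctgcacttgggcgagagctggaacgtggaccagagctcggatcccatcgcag
Of these 300 bases, 74.3% are G or C and 38 positions are CpG, where the medians over 35116 RefSeq promoter windows are 58.7% and 14. This is not particular to KIT. Windows of the other receptors ran from 44.3% (DDR1) to 86.3% (FGFR3) G or C, and from 3 (DDR1) to 52 (FGFR2) CpG. No match to GTAAACA, the core of FOXO sites, or to TTCNNNGAA, the core of STAT sites, is in the KIT window. Over all windows, 3.42% hold the FOXO letters, 7.66% the STAT letters and 45% a GC box on either strand, and of the 21 windows of 9 of the receptors 1, 1 and 12 do.

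**Figure D1:**
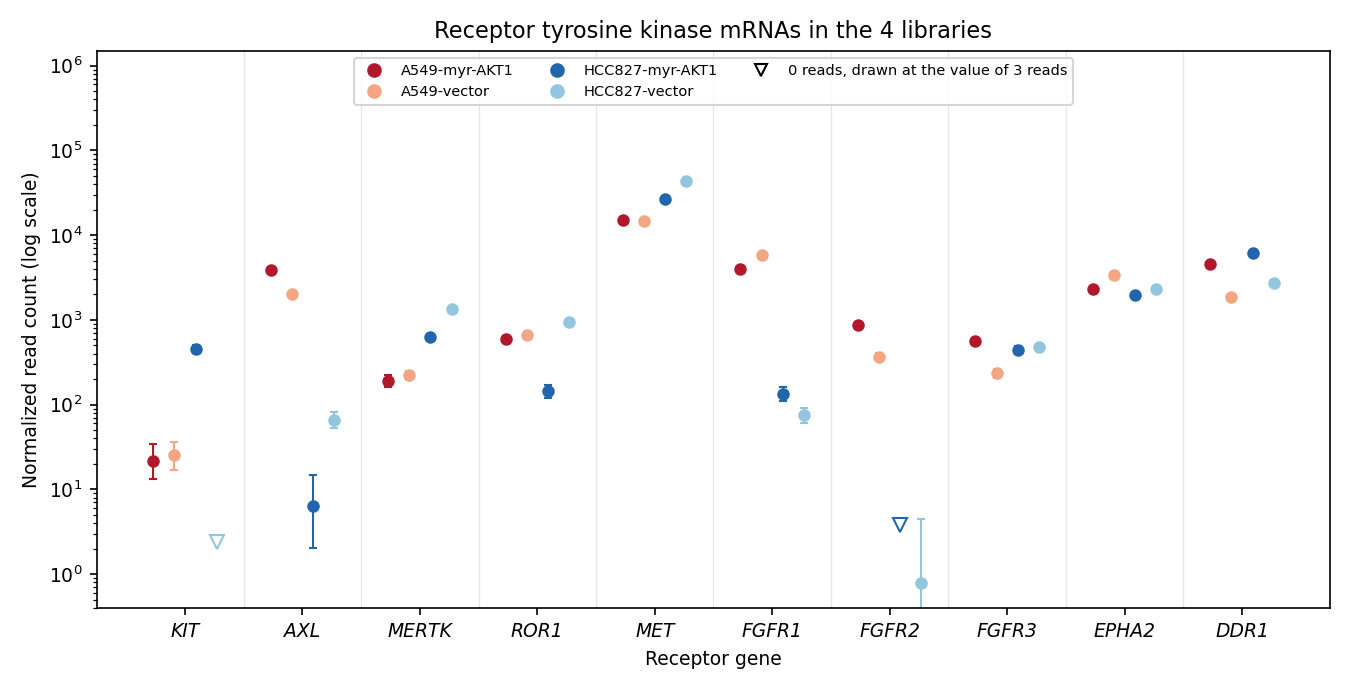
Normalized read counts (log axis) of the 10 receptor genes in the 4 libraries, with bars for the 95% counting interval of each library and open triangles at the value of 3 reads where a library had 0 reads. Values of A549 and HCC827 are scaled separately and compare only within a line. KIT stands at 456 in HCC827-myr-AKT1 against 0 reads in HCC827-vector, whereas MET is highest in every library, at 14646 or more.

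AXL and MERTK belong to the TYRO3, AXL and MERTK family, whose ligands GAS6 and protein S bind exposed phosphatidylserine. The lines differed in the member they expressed most. AXL (ENSG00000167601, chromosome 19, 41219223 to 41261766, plus strand) had 3923 normalized counts in A549-myr-AKT1 and 2012 in A549-vector cells, a log2 ratio of 0.96 (0.89 to 1.04). In HCC827 cells its level was 6.29 (5 reads) in the presence of myr-AKT1 against 66.0 (83 reads) for the vector, and was 10.5-fold lower with myr-AKT1 (log2 ratio -3.39, interval -5.05 to -2.11). The direction was thus opposite in the lines, and the HCC827 value rests on few reads. MERTK (ENSG00000153208, chromosome 2, 111898607 to 112029561, plus strand), which macrophages use to engulf dead cells, had 191 and 223 normalized counts in A549-myr-AKT1 and A549-vector cells, a log2 ratio of -0.22 (-0.51 to 0.07) whose interval includes 0. In HCC827 cells it had 627 against 1329 for the vector, a log2 ratio of -1.08 (-1.23 to -0.94). TYRO3, the other receptor of this family, had a log2 ratio of -0.85 in A549 and 0.25 in HCC827 cells.

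Levels of different genes are compared as RPKM, computed here as reads per kilobase of merged exon scaled to the library total. On that scale AXL made up 80.1% of the summed family level in A549-vector and 91.6% in A549-myr-AKT1 cells. MERTK made up 87.9% in HCC827-vector and 79.7% in HCC827-myr-AKT1 cells, where AXL was 0.644% and TYRO3 19.7%. The summed RPKM was 16.7 in A549-vector and 16.9 in HCC827-vector cells, and 28.9 and 9.27 in the respective myr-AKT1 cells.

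ROR1 was lower with myr-AKT1 mainly in HCC827 cells. ROR1 (ENSG00000185483, chromosome 1, 63774017 to 64181498, plus strand), a receptor of the embryo, binds WNT5A and has little kinase activity of its own. It had 143 normalized counts against 943 for the vector in HCC827 cells, a 6.57-fold lower level (log2 ratio -2.72, interval -3.01 to -2.44). In A549 cells it had 593 and 665, a log2 ratio of -0.16 (-0.33 to -0.00095). AXL, ROR1 and MERTK were the 3 receptors lower by 2-fold or more in HCC827 cells, and the windows of AXL and ROR1, with the widest differences, are printed. That of AXL, at its upstream start, covers chr19:41218973-41219272, and that of ROR1 chr1:63773767-63774066, both on the plus strand of GRCh38.p14, with GC boxes in AXL and the STAT letters in ROR1 in capitals.
AXL: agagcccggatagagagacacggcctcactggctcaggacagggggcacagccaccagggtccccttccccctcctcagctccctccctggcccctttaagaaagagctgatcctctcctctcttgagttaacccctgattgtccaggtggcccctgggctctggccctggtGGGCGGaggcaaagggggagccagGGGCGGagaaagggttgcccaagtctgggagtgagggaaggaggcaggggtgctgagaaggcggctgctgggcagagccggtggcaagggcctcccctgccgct
ROR1: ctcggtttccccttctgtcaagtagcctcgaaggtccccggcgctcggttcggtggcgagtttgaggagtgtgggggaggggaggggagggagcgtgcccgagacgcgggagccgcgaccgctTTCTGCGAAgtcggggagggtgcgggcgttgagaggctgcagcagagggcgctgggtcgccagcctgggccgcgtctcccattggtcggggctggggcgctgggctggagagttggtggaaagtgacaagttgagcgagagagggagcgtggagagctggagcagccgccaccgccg
The AXL window has 2 GC boxes, 78 and 54 bases before the start, and the ROR1 window has the STAT letters TTCTGCGAA 127 bases before the start and no GC box. Among the 21 windows, the FOXO letters were found only in the window of the second AXL start, chr19:41226505-41226804. A match is a run of letters and does not show binding.

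MET (ENSG00000105976, chromosome 7, 116672196 to 116798377, plus strand), the receptor for hepatocyte growth factor, was the most abundant of the 10 per kilobase in all 4 libraries. It had 15257 normalized counts in A549-myr-AKT1 and 14646 in A549-vector cells, a log2 ratio of 0.06 (0.03 to 0.09). In HCC827 cells it had 26923 against 43203 for the vector, a log2 ratio of -0.68 (-0.71 to -0.66). Its RPKM was 275.5 in HCC827-vector cells, number 85 of 19882 protein-coding genes, and 69.2 in A549-vector cells, number 409.

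The fibroblast growth factor receptors differed in composition between the lines. FGFR1 (ENSG00000077782, chromosome 8, 38400215 to 38468834, minus strand) had 3996.5 normalized counts in A549-myr-AKT1 and 5895 in A549-vector cells, a log2 ratio of -0.56 (-0.62 to -0.50), and 135 and 74.7 in HCC827 cells, a log2 ratio of 0.85 (0.44 to 1.27). FGFR2 (ENSG00000066468, chromosome 10, 121478332 to 121598458, minus strand) had 867 and 369 in A549 cells, a log2 ratio of 1.23 (1.06 to 1.41), and 0 and 1 read in the HCC827 libraries, too few for a ratio. FGFR3 (ENSG00000068078, chromosome 4, 1793293 to 1808872, plus strand) had 560.0 and 235 in A549 cells, a log2 ratio of 1.25 (1.04 to 1.47). In HCC827 cells FGFR3 had 439 and 482, a log2 ratio of -0.13 (-0.33 to 0.06). FGFR1 was thus lower, and FGFR2 and FGFR3 higher, with myr-AKT1 in A549 cells.

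Together with FGFR4, these receptors form 1 family that signals through the adaptor FRS2. By RPKM, FGFR4 made up 48.1% to 58.4% of the summed level, the highest share in all 4 libraries. In reads, however, FGFR1 was above FGFR4 in A549 cells, with 3490 against 1532 reads with myr-AKT1 and 6751 against 2474 with the vector, so there the order turns with the length used. FGFR1 made up 39.9% in A549-vector and 30.6% in A549-myr-AKT1 cells, but 1.74% and 3.66% in the respective HCC827 cells. FGFR3 made up 5.63% in A549-vector, 15.2% in A549-myr-AKT1, 39.9% in HCC827-vector and 42.3% in HCC827-myr-AKT1 cells. Merged exons count rarely used exons in the length, which lowers the level of FGFR1 and FGFR2, at 17201 and 18813 bases, relative to FGFR3, at 4848 bases, and likewise relative to FGFR4.

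**Figure D2:**
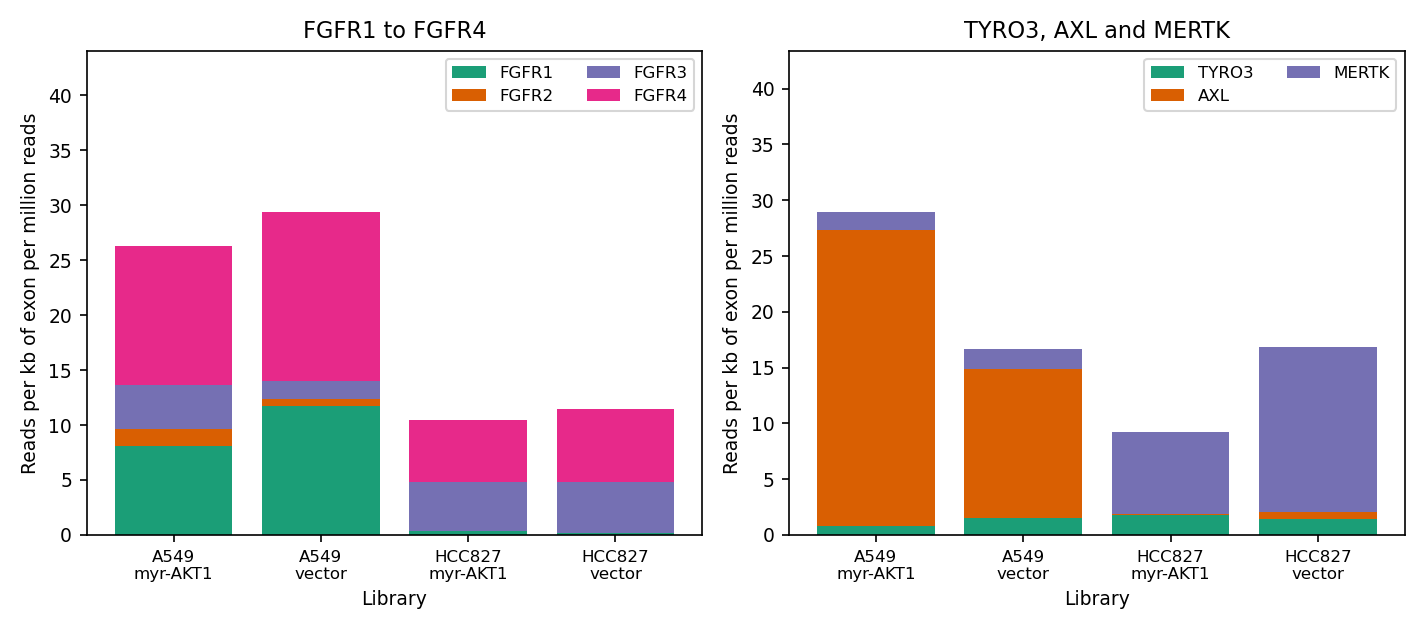
RPKM, stacked by receptor, for the fibroblast growth factor receptors (left) and the TYRO3, AXL and MERTK family (right) in each of the 4 libraries. FGFR1 and AXL fill 39.9% and 80.1% of the A549-vector bars and 1.74% and 3.51% of the HCC827-vector bars.

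DDR1 was the single receptor of the 10 that was higher by 2-fold or more with myr-AKT1 in both lines. DDR1 (ENSG00000204580, chromosome 6, 30876421 to 30900156, plus strand) is a receptor of epithelial cells for fibrillar and basement membrane collagens. It had 4553 normalized counts in A549-myr-AKT1 and 1843 in A549-vector cells, a log2 ratio of 1.31 (1.23 to 1.38). In HCC827 cells it had 6157 and 2716, a log2 ratio of 1.18 (1.12 to 1.24). EPHA2 (ENSG00000142627, chromosome 1, 16124337 to 16156069, minus strand), an ephrin receptor common in epithelia, had 2288 and 3390.0 in A549 cells, a log2 ratio of -0.57 (-0.65 to -0.49), and 1947 and 2324 in HCC827 cells, a log2 ratio of -0.26 (-0.35 to -0.17). EPHA2 was lower with myr-AKT1 in both lines by less than 2-fold.

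In A549 cells, 3 of the 10 receptors (FGFR2, FGFR3, DDR1) were higher by 2-fold or more with myr-AKT1 and 0 were lower. Of 18819 genes with at least 20 reads in that pair, 14.7% were higher and 10.2% lower by this criterion. In HCC827 cells 9 of the 10 had at least 20 reads in the pair, FGFR2 being the exception, with 2 higher (KIT, DDR1) and 3 lower (AXL, MERTK, ROR1). Of 17470 genes there, 13.5% were higher and 13.2% lower. The median log2 ratio of the receptors was -0.05 in A549 and -0.26 in HCC827 cells, and -0.04 and -0.05 over all genes tested. Since the receptors were picked with these contrasts known, nothing is read from the counts. AXL, at 0.96 in A549 cells, was 1.07 with size factors taken over all 4 libraries, past 2-fold.

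**Figure D3:**
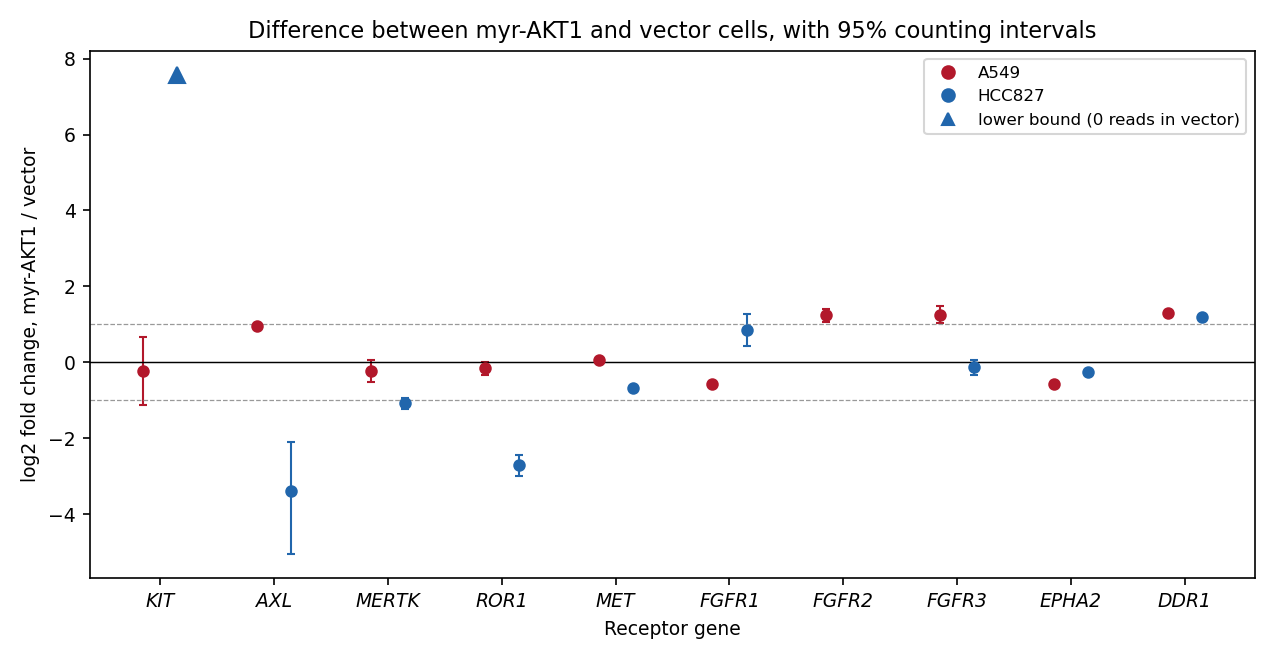
Log2 ratio of myr-AKT1 to vector cells for each receptor in A549 and HCC827, with 95% counting intervals and dashed lines at 2-fold. The triangle for KIT in HCC827 is a lower bound of 7.58, and FGFR2 in HCC827, with 0 and 1 read, is not drawn.

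Which receptors differ between the lines is a question that the choice of the 10 did not use, and all 4 libraries bear on it. With values rescaled over the 4 libraries and the construct as a covariate, limma gave 3 receptors higher in A549 and 3 higher in HCC827 at an adjusted p under 0.05, where 15.5% and 13.9% of 19314 genes were. All 10 receptors were in the fit. Its 1 residual degree of freedom is the difference of the construct effect between the lines, and limma draws part of the variance from all genes. Since the receptors were picked with the construct differences known, that error term and the p-values are not free of the choice. With 1 library per condition, the p-values do not measure the spread between replicate cultures. FGFR1 had 3580 and 4919 rescaled counts in A549-myr-AKT1 and A549-vector cells and 155 and 83.1 in the HCC827 cells, a log2 difference of 5.20 (standard error 0.380, adjusted p = 0.000496 from limma). FGFR2 had 776 and 307 in A549 cells and 0 and 0.884 in HCC827 cells (adjusted p = 0.00083 from limma). With 0 and 1 read in HCC827, FGFR2 passed the filter on low counts only through A549, so it had to differ and its call supports nothing. AXL had 3514 and 1679 in A549 cells and 7.24 and 73.4 in HCC827 cells, a log2 difference of 6.62 (standard error 0.919, adjusted p = 0.00354 from limma). Its 5 reads in HCC827-myr-AKT1 cells are under that filter, so AXL also needed A549 to pass it and nothing is read from its call.

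In the other direction, MERTK had 171 and 186 rescaled counts in A549-myr-AKT1 and A549-vector cells and 721 and 1478 in HCC827 cells, 5.76-fold higher in HCC827 (adjusted p = 0.00362 from limma). MET was 2.98-fold higher in HCC827 (adjusted p = 0.0119 from limma), from 12221 to 13665 rescaled counts in A549 and 30964 to 48046 in HCC827. DDR1 was 1.85-fold higher (adjusted p = 0.0311 from limma), though its A549-myr-AKT1 library, at 4078, was above its HCC827-vector library, at 3020. Without the construct as a covariate, MET and DDR1 did not pass, with adjusted p of 0.0544 and 0.427 from limma. Over the 6 alternatives run, edgeR and DESeq2 included, the adjusted p ranged from 1.31e-09 to 0.0544 for MET and from 0.00803 to 0.427 for DDR1. Both lowest values came from limma on all genes of at least 1 read. EPHA2, FGFR3, ROR1 and KIT did not pass, with log2 differences of 0.0014, -0.73, 0.38 and -0.11 and standard errors of 0.234, 0.420, 0.596 and 1.93 (adjusted p of 0.245 to 0.997 from limma).

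Within a library, the order of the 10 levels per kilobase had MET first throughout. In A549-vector cells EPHA2, AXL, FGFR1, DDR1, ROR1, MERTK, FGFR3, FGFR2 and KIT followed, from 28.0 to 0.0764 RPKM. In A549-myr-AKT1 cells AXL and DDR1 stood higher in the order, at 26.5 and 17.3, and in HCC827-myr-AKT1 cells KIT stood at place 6 with 1.96. By counting error alone, neighbours in the order overlapped in 4 cases, MERTK with FGFR2 in A549-myr-AKT1, MERTK with FGFR3 in A549-vector, and MERTK with DDR1 and FGFR2 with KIT in HCC827-vector cells.

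The files hold 41 other receptor tyrosine kinases outside the ERBB and insulin families. In A549 cells 25 of them had at least 20 reads, with 5 higher and 4 lower by 2-fold or more and a median log2 ratio of -0.03. In HCC827 cells 20 had, with 3 higher and 2 lower and a median of 0.26. Over all genes tested, 14.7% were higher and 10.2% lower in A549 cells, and 13.5% and 13.2% in HCC827 cells. ROS1, a receptor known for its fusions in LAD, had 1994 normalized counts in A549-myr-AKT1 and 54.1 in A549-vector cells, a log2 ratio of 5.20 (4.84 to 5.59), and 1998 and 339 in HCC827 cells, a log2 ratio of 2.56 (2.41 to 2.72). NTRK3, the neurotrophin-3 receptor, had 26267 and 4112 in A549 cells but not a single read in either HCC827 library. EPHA4 and EPHB6 were also higher in A549-myr-AKT1 cells (log2 ratios 1.70 and 1.26), and DDR2, RET, PTK7 and FLT4 lower (-1.83, -1.06, -1.05 and -1.004). In HCC827 cells KDR and EPHB3 were higher (3.53 and 1.36) and EPHA10 and MST1R lower (-1.25 and -1.21). MST1R is the receptor most closely related to MET.

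**Figure D4:**
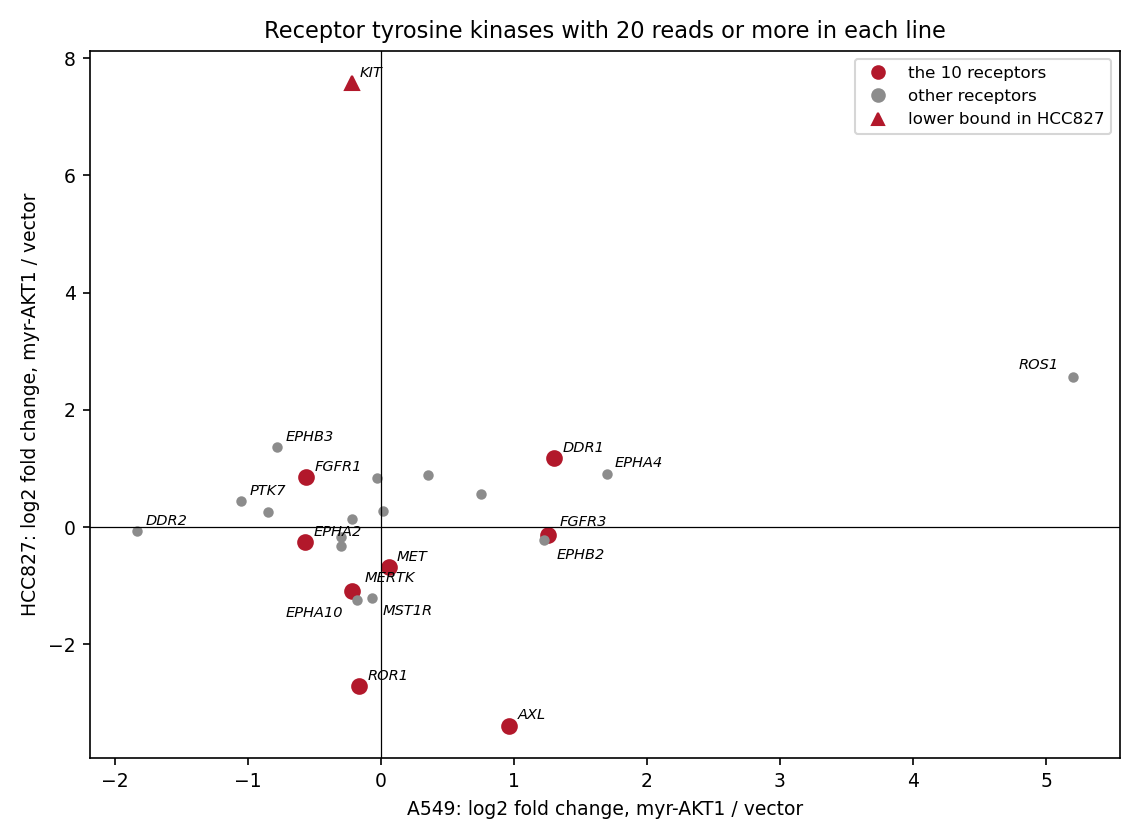
Log2 ratio of myr-AKT1 to vector cells in A549 (horizontal) against HCC827 (vertical) for the 25 receptors that reached 20 reads in both pairs, 9 of the 10 receptors in red and 16 others in grey. DDR1 (1.31 and 1.18) and ROS1 (5.20 and 2.56) lie to the upper right and AXL (0.96 and -3.39) to the lower right. The triangle of KIT is a lower bound at the 3-read floor.

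The ligands of the receptors were measured in the same libraries, and some were higher with myr-AKT1 in 1 line and lower in the other, a difference that was not tested. HGF, the ligand of MET, had 57.3 normalized counts in A549-myr-AKT1 and 2.62 in A549-vector cells (50 and 3 reads), a log2 ratio of 4.45 (2.82 to 6.78). In HCC827 cells HGF had 23.9 against 172 for the vector, a log2 ratio of -2.84 (-3.60 to -2.17). KITLG, the stem cell factor that KIT binds, had 3456 and 1594 in A549 cells, a log2 ratio of 1.12 (1.03 to 1.20). In HCC827-myr-AKT1 cells, where KIT had reads, KITLG had 739 against 2802 with vector, a log2 ratio of -1.92 (-2.05 to -1.80). HGF and KITLG were thus higher with myr-AKT1 in A549 and lower in HCC827 cells.

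GAS6, a ligand of AXL and MERTK, and PROS1, a ligand of MERTK, followed the same directions. GAS6 had 286 and 155 normalized counts in A549-myr-AKT1 and A549-vector cells, a log2 ratio of 0.88 (0.60 to 1.17). In HCC827 cells GAS6 had 10.1 and 41.3 (8 and 52 reads), a log2 ratio of -2.04 (-3.32 to -0.95) that rests on few reads. PROS1, which encodes protein S, had log2 ratios of 1.04 (0.97 to 1.11) and -0.41 (-0.53 to -0.30). For AXL and GAS6, receptor and ligand were both higher in A549-myr-AKT1 and both lower in HCC827-myr-AKT1 cells. FGF2 had log2 ratios of 0.34 (0.26 to 0.42) in A549 and -1.26 (-1.59 to -0.95) in HCC827 cells, opposite to those of FGFR1 in both lines. FGF1 had 5 reads or fewer in every library.

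EFNA1, an ephrin that EPHA2 binds, was higher with myr-AKT1 in both lines. It had 1309 normalized counts against 528 in A549 cells, a log2 ratio of 1.31 (1.17 to 1.45), and 1575 against 504 in HCC827 cells, a log2 ratio of 1.64 (1.51 to 1.78). WNT5A, the ligand of ROR1, had a log2 ratio of 0.35 (0.18 to 0.52) in A549 cells, and in HCC827 cells 18 reads with myr-AKT1 against 1 for the vector, a ratio of 28.5 with an interval of 4.50 to 1187. Of the 32 ligands listed, 16 had at least 20 reads in each pair, and 14 had them in both. Of these 14, 7 had opposite directions with both counting intervals excluding 0, as 14.6% of 15781 genes did, and 5 had the same direction, as 41.8% did. EFNB1 and EFNA5 were the others with opposite directions, EFNA5 (named after the values were seen) being lower in A549 and higher in HCC827 cells. By 2-fold or more, 14.7% of all genes tested were higher and 10.2% lower in A549 cells, and 13.5% and 13.2% in HCC827 cells. Of the 16 ligands tested in A549 cells, 7 were higher and 0 lower, with a median log2 ratio of 0.67. Of the 16 ligands tested in HCC827 cells, 3 were higher and 6 lower, with a median of -0.40. Among the others past 2-fold, the ephrins EFNB1 and EFNB3 (2.04 and 1.04) and the MST1R ligand MST1 (1.10) were higher in A549-myr-AKT1 cells. EFNB3 and MST1 were higher (1.90 and 2.40) and FGF9 and EFNB2 lower (-2.92 and -1.44) in HCC827-myr-AKT1 cells.

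**Figure D5:**
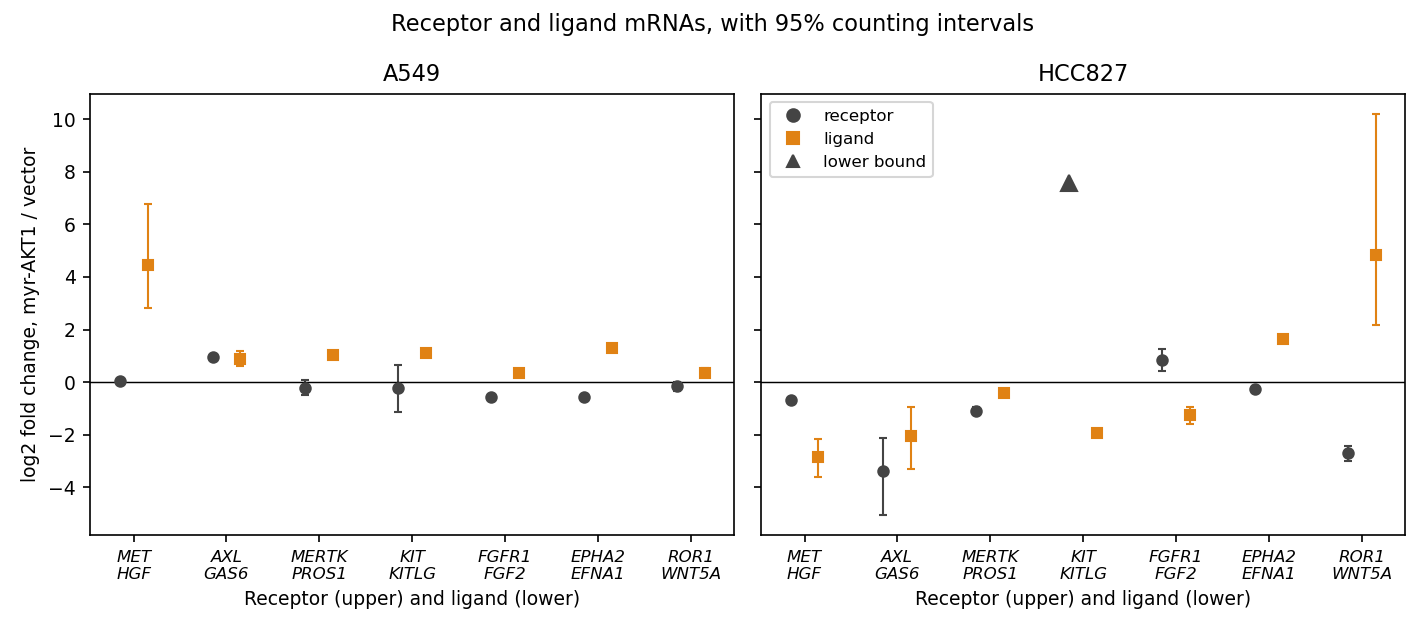
Log2 ratio of myr-AKT1 to vector cells for 7 receptors and 1 ligand of each, in A549 (left) and HCC827 (right), with 95% counting intervals. KITLG lies at 1.12 in A549 and -1.92 in HCC827 beside the lower bound for KIT, and WNT5A in HCC827 rests on 18 and 1 reads.

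Proteins that process ligands or work beside the receptors were followed as a list of 12. SPINT1, an inhibitor of the proteases that activate hepatocyte growth factor, had 172 normalized counts against 21.0 in A549 cells and 9733 against 2257 in HCC827 cells, log2 ratios of 3.03 (2.41 to 3.72) and 2.11 (2.05 to 2.17). The related SPINT2 was higher in A549-myr-AKT1 cells (1.34), as was the FGF19 coreceptor KLB (1.06), and in HCC827-myr-AKT1 cells the protease HPN was higher (1.88) and the FGF carrier FGFBP1 lower (-2.10). Of all genes tested, 14.7% were higher and 10.2% lower by 2-fold or more in A549 cells, and 13.5% and 13.2% in HCC827 cells. Beside these shares, 3 of 8 tested from the list of 12 were higher and 0 lower in A549 cells, with a median log2 ratio of 0.72. In HCC827 cells 2 of 9 were higher and 1 lower, with a median of 0.43. Of 24 adaptors and downregulators, 1 of 22 tested was higher and 0 lower in A549 cells (median 0.02), and 3 of 24 higher and 1 lower in HCC827 cells (median 0.32). GRB10 was the one in A549 cells (1.18), and CBLB, a ubiquitin ligase for receptors, the receptor inhibitor LRIG1 and SOCS1 were higher (1.18, 1.17 and 1.98) and SOCS6 lower (-1.11) in HCC827 cells.

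With the cell line as a blocking term over the 4 libraries, limma on log2(normalized count + 1) fitted 78 of the 109 genes of these 4 lists. The lists were chosen with this contrast known, so the counts are no independent evidence. With myr-AKT1, 3 rose at an adjusted p under 0.05 and 0 fell, where 1.29% and 1.73% of 19314 genes did. They were ROS1 (log2 ratio 3.87, standard error 0.561, adjusted p = 0.0189), SPINT1 (2.54, standard error 0.342, adjusted p = 0.0143) and EFNA1 (1.47, standard error 0.280, adjusted p = 0.0381), each higher in 2 of 2 lines. At an unadjusted p under 0.05, 11 were higher and 1 lower, where 9.17% and 9.24% of the 19314 genes were, and both edgeR and DESeq2 called 4 higher and 0 lower. ROS1 and EFNA1 did not pass with TMM scaling (adjusted p of 0.0592 and 0.0668 from limma), where SPINT1 did, and none of these passed with a pseudocount of 0.1 or without the block (adjusted p of 0.088 to 1.0 from limma). From edgeR the adjusted p was 0.0311 for ROS1, 0.015 for SPINT1 and 0.0472 for EFNA1. From DESeq2 it was 3.67e-06, 4.71e-08 and 0.000256, the last being the lowest for EFNA1 over the 6 alternatives. The lowest for ROS1 and SPINT1, 3.42e-23 and 4.35e-10, came from limma on all genes of at least 1 read. As in the line fit, each condition has 1 library, so none of these p-values measures the spread between replicate cultures.

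Some receptors share exon bases with annotated neighbours. Exons of other genes cover 1.31% of the exon bases of AXL, 0.987% of DDR1, and 0.802% and 2.25% of FGFR1, and no overlapping exons were annotated for the other 7 receptors. The overlapping LETM2, on the strand opposite to FGFR1, had 43 to 141 reads per library, beside 94 to 107 reads of FGFR1 in HCC827 cells, and whether the counting used strand is not given in the sources used here.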

How the data were processed

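Per the labels and the study's Methods, after trimming the authors aligned reads to hg38 using Bowtie2 2.3.5 and computed gene values with HTSeq 0.11.2. The Methods describe selection of polyadenylated RNA, the labels depletion of ribosomal RNA. The Methods name RPKM, but the deposited signal is a count of reads scaled by a library-wide size factor (0.795 to 1.26), estimated within a cell line. Whole reads, within 0.001, were recovered for 99.9961% or more of the values above 0 in each library. Totals were 16322183 to 33530317 reads.

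Genes were named from GENCODE release 44, with 297 of 60558 identifiers unmatched. Fold changes are ratios of the deposited values without a pseudocount. Where a library had 0 reads, 3 reads stood in, which gives a bound at that floor only. Clopper-Pearson intervals (95%) and this floor cover counting error only, since reads are not independent molecules. Genes with 20 reads or more in a pair were counted as tested, and 2-fold was the threshold. The receptors and gene lists were chosen with earlier results of these data known, and the motifs after the values were seen. Levels per kilobase use merged GENCODE exons. Promoter windows (250 bases before to 50 after a start) come from RefSeq, GRCh38.p14, and cover 9 of the 10 receptors.

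For the fits over 4 libraries, limma 3.58.1 with a mean-variance trend was used on log2(value + 1) for genes kept by edgeR's filterByExpr, with Benjamini-Hochberg adjustment. For the line difference, values were rescaled with median-of-ratios size factors over 4 libraries. edgeR 4.0.16 and DESeq2 1.42.0 on the recovered reads were alternatives, as were other scalings, filters, pseudocounts, thresholds and covariates. The fits were also run on simulated counts in which the construct effect did not differ between lines, which cannot show how they behave on these data. Named genes were the 10 receptors, 8 ligands of theirs, the 5 genes most like KIT, AKT1, and per list and line up to 4 genes at each end among those past 2-fold whose interval excluded 0. TYRO3, FGFR4 and the KIT neighbours were added after the values were seen. R 4.3.3 and Python 3.11.15 were used.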

Additional observations from a re-analysis of the deposited data

Results flagged for a closer look

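With both counting intervals excluding 0, 3 of the 9 receptors with 20 reads or more in both pairs pointed up in 1 line and down in the other, as did 14.6% of 15781 genes. Of 14 listed ligands with such reads 7 did, and 5 of them are among the 8 chosen to be named whatever their values. No test of that difference was made, because each line has 1 library per condition. As log2 ratios of myr-AKT1 to vector, AXL had 0.96 in A549 and -3.39 in HCC827 cells. FGFR1 had -0.56 and 0.85, and MET had 0.059 and -0.68, the A549 value of MET being small. Among the ligands, HGF had 4.45 in A549 and -2.84 in HCC827 cells, KITLG 1.12 and -1.92, GAS6 0.88 and -2.04, PROS1 1.04 and -0.41, and FGF2 0.34 and -1.26. All 5 of these ligands were higher with myr-AKT1 in A549 and lower in HCC827 cells.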

How the results depend on the processing

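Under the other scalings and a pseudocount of 1, no log2 fold change of a receptor whose interval excluded 0 changed sign, and 68 of the 76 values computed stayed within the counting interval. With a threshold of 4-fold, 0 receptors were higher in A549 and 1 in HCC827 cells, against 3 and 2 at 2-fold, and requiring 1 read in both libraries, which leaves out KIT, gave 1 higher in HCC827 cells. For the line difference, leaving out the construct as a covariate left 1 receptor higher in HCC827 in place of 3, and the genes called in all were 1645 higher in A549 and 1343 higher in HCC827, against 3000 and 2675. The other 5 alternatives, edgeR and DESeq2 included, each gave 3 and 3 receptors. For the 4 gene lists across both lines, the number called higher was 1 with TMM, 6 with all genes of at least 1 read, and 0 without a block or at a pseudocount of 0.1, in place of 3. Over all genes, the construct effect called 250 higher and 335 lower, but 42 and 96 with TMM, 1101 and 894 with all genes of at least 1 read, 621 and 518 with DESeq2, and 0 and 0 without a block or at a pseudocount of 0.1. The cause was not tested. The labels give no replicate numbers, and the block that pairs the constructs within a line is part of the fit for the gene lists. With 1 library per condition and 1 residual degree of freedom, no library was left out. Low counts limit AXL and GAS6 in HCC827-myr-AKT1 cells (5 and 8 reads), KIT in A549 cells, HGF in A549-vector cells (3 reads) and WNT5A in HCC827-vector cells (1 read).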
